A study of Homo sapiens with 3 samples.

Results

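Transcription factors of the epithelial-mesenchymal transition (EMT), with 2 grainyhead factors that oppose them, were examined after knockdown of NONO in a line of human bladder cancer cells, UM-UC-3. The gene list held 10 factors, SNAI1, SNAI2, TWIST1, TWIST2, ZEB1, ZEB2, PRRX1, TCF3, GRHL1 and GRHL2, chosen by gene name, with earlier results of these data known. Of these, 7 had a value in all 3 libraries, out of 21308 genes with such values, and each of the 7 passed the filter of at least 1 CPM (reads of a gene scaled to the library's total) in at least 1 library. TWIST2, PRRX1 and GRHL2 were not analysed here. The study asked how NONO, an RNA- and DNA-binding protein of transcription and splicing, acts on SETMAR splicing and lymphatic spread. UM-UC-3 cells received 75 nM of a control siRNA, of NONO siRNA 1 or of NONO siRNA 2 for 48 h. No other agent is named apart from the transfection reagent, and each treatment gave 1 library of RNA from 1 cell line. Below, a gene higher or lower after both siRNAs was so in each of the 2 NONO siRNA libraries. The 3 libraries implied 27681990 to 29408573 reads on genes.

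EMT is the programme by which epithelial cells give up their junctions and gain a motile, mesenchymal state. SNAI and ZEB proteins are zinc finger repressors that bind E-box sequences in epithelial genes such as the E-cadherin gene. TWIST proteins belong to the basic helix-loop-helix (bHLH) class and bind E-boxes as dimers with E proteins, of which TCF3 codes for a pair by alternative splicing. Grainyhead-like (GRHL) proteins activate junction genes, and GRHL2 and ZEB1 are known to repress each other. The microRNAs of the miR-200 family repress ZEB1 and ZEB2 and are repressed by them in turn.

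The siRNA strands are shown because every comparison rests on them, with the capitals marking the 7 bases that a target transcript shares with the strand as labelled and that pair with bases 2 to 8 of the opposite strand, the guide if the label gives the sense strand.
control siRNA: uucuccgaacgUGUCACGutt
NONO siRNA 1: ggcgaagucuuCAUUCAUatt
NONO siRNA 2: gcaucccuuacAGUUCGAatt
The NONO strands match the NONO transcript NONO-201 at chrX:71291925-71291943 and chrX:71294320-71294338 (GRCh38, plus strand), in coding exons 4 and 5 of its 12 exons, and are therefore sense strands. NONO itself fell to 79.5 and 104 CPM after siRNA 1 and siRNA 2, 9.66% and 12.6% of its control level of 823 CPM (limma adjusted p = 0.00698). Its paralogs SFPQ and PSPC1 stood higher after both, SFPQ at 649 CPM in control cells and 819 and 959 CPM after knockdown and PSPC1 at 78.5, 107 and 140 CPM, without passing (limma adjusted p = 0.452 and 0.384).

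The miR-200 microRNAs are shown in 2 groups of shared seed (bases 2 to 8, in capitals), since matches to them recur in the 3′ UTRs of both ZEB genes.
hsa-miR-200b-3p: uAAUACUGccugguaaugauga
hsa-miR-200c-3p: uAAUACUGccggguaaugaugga
hsa-miR-429: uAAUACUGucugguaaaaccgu
hsa-miR-200a-3p: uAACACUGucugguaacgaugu
hsa-miR-141-3p: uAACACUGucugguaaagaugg
ZEB1 site, 3′ UTR: atcttatCAGTATTatcactc
ZEB2 site, 3′ UTR: catacatCAGTATTtttatta
The microRNAs come from RefSeq (GRCh38.p14) and the sites, with the complement of the seed in capitals, from the GENCODE 29 transcripts ZEB1-202 (chromosome 10) and ZEB2-236 (chromosome 2). The 3′ UTR of ZEB1-202 held CAGTATT 6 times and CAGTGTT 3 times, and that of ZEB2-236 held them 5 and 4 times. Among the 11371 3′ UTRs searched, on the transcript strand, 17.9% held CAGTATT at least once and 19.4% CAGTGTT. These shares count 3′ UTRs, not matches, and take no account of length. The 3′ UTRs of ZEB1-202 and ZEB2-236 have 2549 and 5370 bases. SNAI2 held CAGTATT once in its 3′ UTR, and SNAI1, TWIST1, TCF3 and GRHL1 held neither there. A match of letters is not a proven site, and the microRNAs themselves were not measured here.

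TCF3 was the factor whose mean log2 fold lay farthest from 0. It codes for E proteins, the bHLH dimer partners of TWIST1, and lies on GRCh38 chromosome 19, from 1609290 to 1652605 on the minus strand (ENSG00000071564). TCF3 stood at 67.4 CPM in control cells (exact 95% Poisson limits 64.4 to 70.5), at 176 CPM after siRNA 1 (171 to 181) and at 199 CPM after siRNA 2 (194 to 205). Both knockdown libraries lay well above the control, 2.61 and 2.96 times its level, and nearer to each other than to the control. The log2 folds of TCF3 were 1.37 and 1.55, and their mean was 1.46 (SE 0.23), which ranked 47th from the highest of 13922 genes tested. With limma's test TCF3 missed the threshold after adjustment over all genes (unadjusted p = 0.000158, adjusted p = 0.0536), so the difference is not called. None of the 7 factors passed that test, while among all genes 19 (0.136%) passed as higher and 11 (0.079%) as lower, 30 (0.215%) in all. At an unadjusted limma p under 0.05 TCF3 was the one factor past the threshold, beside 968 genes (6.95%) higher and 620 (4.45%) lower, 1588 (11.4%) in all. On the recovered reads DESeq2 called TCF3 among 146 genes higher (1.05%) and 61 lower (0.438%), while edgeR called no factor, 0% of genes higher and 1 gene, or 0.00718%, lower. The DESeq2 shares are of all 13922 genes, but 3509 of these got no adjusted p and could not be called. Among genes that could be called, the shares are therefore larger. Across the alternative fits the adjusted p of TCF3 ran from 0.000478 with DESeq2 to 0.566 with limma and no filter on low values, and the folds stayed between 1.37 and 1.55.

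With a single control library, the only spread within a group is that between 2 different siRNAs, and p-values assume that the control varies alike. In limma that spread gives each gene 1 residual degree of freedom, beside 7.68 prior degrees of freedom drawn from all genes. A limma p-value here thus rests mostly on the spread of genes at a similar level. It says little about how closely the 2 siRNAs gave the same fold. Both folds of a gene share that control library, and nothing in the labels says whether the libraries came from separate cultures. In bulk RNA, fewer cells with a transcript and less of it per cell cannot be told apart.

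**Figure D1:**
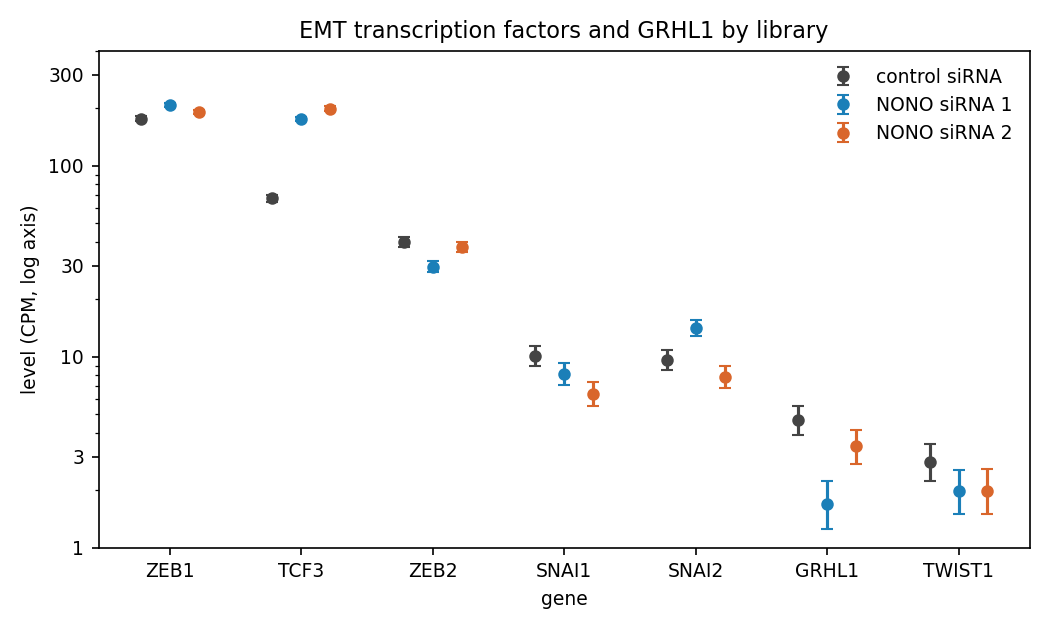
Level of each of the 7 measured factors in CPM (log axis) in control cells and the 2 NONO siRNA libraries, with exact 95% Poisson intervals, which cover counting error only. TCF3 was at 67.4 CPM in the control and at 176 and 199 CPM after knockdown, SNAI2 lay above the control after siRNA 1 and below it after siRNA 2, and GRHL1 lay lowest against its control after siRNA 1, at 1.70 against 4.66 CPM.

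The other E proteins, which can stand in for TCF3 as dimer partners, lay on the opposite side. TCF12 stood at 191 CPM in control cells and at 139 and 144 CPM after siRNA 1 and siRNA 2. TCF4, an E protein gene not to be confused with the Wnt factor of the same nickname, stood at 30.1, 13.3 and 18.5 CPM. Both were lower in each knockdown library and neither passed (limma adjusted p = 0.522 and 0.279). Per kilobase of annotated exon, TCF12 was the most abundant E protein in control cells, at 20.2 CPM per kilobase (RPKM) against 11.1 for TCF3 and 1.08 for TCF4. In the knockdown libraries TCF3 led, at 28.9 and 32.8 RPKM against 14.7 and 15.3 for TCF12. The share of TCF3 in the summed level per length of these 3 genes was 34.2% in control cells, 65.6% after siRNA 1 and 67.3% after siRNA 2. With the length of 1 transcript per gene in place of all exons it was 26.7%, 58.9% and 59.8%, which gives the same direction by either length. The level of TCF4 depends strongly on the length used, since its exons add up to 27828 bases. By 1 transcript TCF4 stood at 11.8, 5.21 and 7.25 RPKM. Its share was then 16.7%, 6.26% and 7.8%, against 3.33%, 1.08% and 1.36% by all exons. By all exons, the summed level of the 3 genes was 32.4 RPKM in the control and 44.1 and 48.7 RPKM after knockdown.

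**Figure D2:**
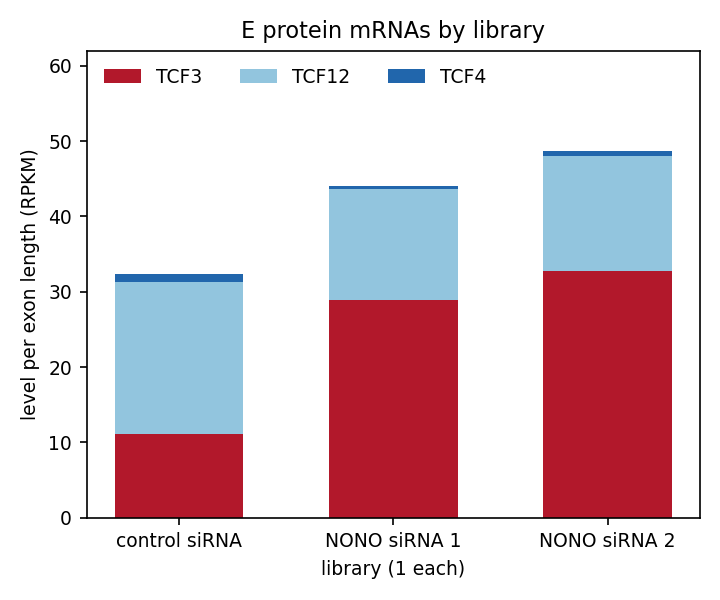
Level per exon length (RPKM) of the E protein genes TCF3, TCF12 and TCF4, stacked, in control cells and the 2 NONO siRNA libraries, each a single library without error bars. TCF3 made up 34.2% of the stack in control cells and 65.6% and 67.3% after knockdown.

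The ID genes code for helix-loop-helix proteins that lack the basic, DNA-binding part, which hold E proteins in inactive dimers. All 4 were higher after both siRNAs and no ID gene passed in limma after adjustment. ID3 stood at 148 CPM in control cells and at 221 and 221 CPM after knockdown, where its log2 folds were 0.57 and 0.57. ID2 stood at 17.4, 38.2 and 22.8 CPM, so its difference from the control was larger after siRNA 1. ID4 stood at 1.55, 4.90 and 3.29 CPM, and ID1 at 192, 204 and 250 CPM. Over all genes tested, 37.8% were higher and 34.5% lower after both siRNAs, so a shared sign alone is common in these libraries.

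**Figure D3:**
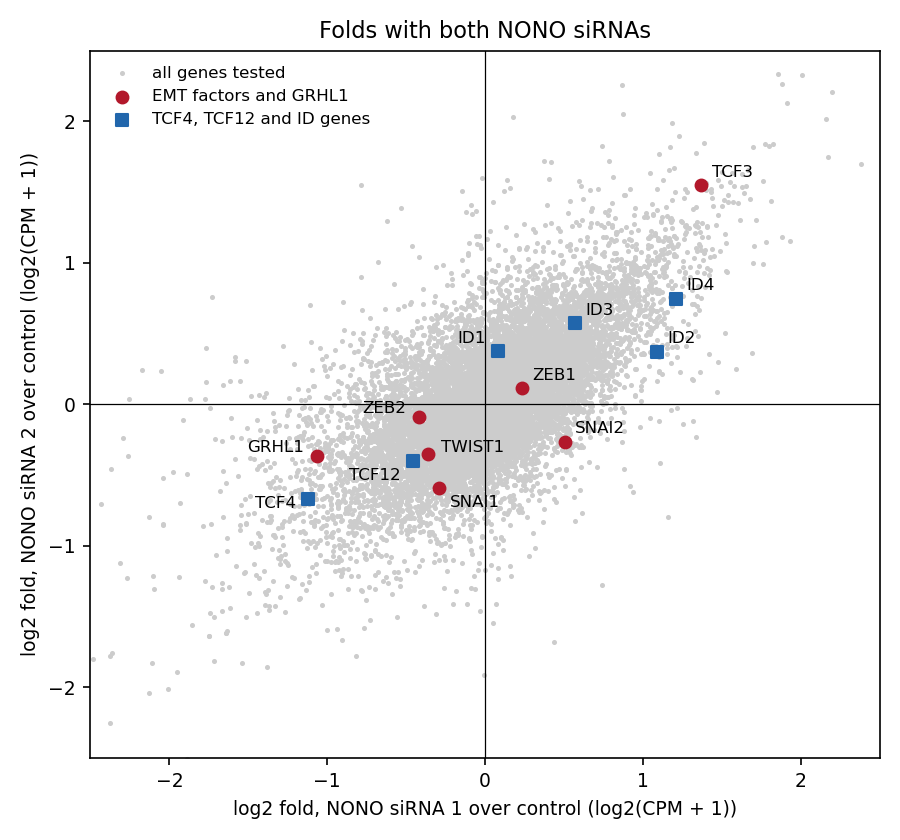
Log2 fold with NONO siRNA 1 (x axis) against that with NONO siRNA 2 (y axis), both over the same control library on the log2(CPM + 1) scale, for all 13922 genes tested (grey, with 11 genes beyond the axes), the 7 factors (red) and TCF4, TCF12 and the ID genes (blue). TCF3 lies at 1.37 and 1.55, apart from the other factors, and TCF4 and TCF12 lie in the opposite quadrant.

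The TWIST gene that was measured, TWIST1, was scarce. TWIST1 codes for a bHLH factor that drives EMT (chromosome 7, 19020991 to 19117672, minus strand). Its level was 2.82 CPM in control cells, from 78 reads (exact 95% Poisson limits 2.23 to 3.52), then 1.97 CPM from 58 reads (1.498 to 2.55) after siRNA 1, and 1.99 CPM from 57 reads (1.51 to 2.58) after siRNA 2. Both knockdown libraries were lower, but their intervals overlap that of the control. The log2 folds of -0.36 and -0.35 did not pass the limma test (adjusted p = 0.715), and folds on the log2(CPM + 1) scale understate changes at this level.

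The SNAI genes code for the Snail and Slug repressors, and SNAI1 was lower after both siRNAs while SNAI2 was not. SNAI1 (chromosome 20, 49982999 to 49988886, plus strand) stood at 10.2 CPM in control cells (exact 95% Poisson limits 8.999 to 11.4), at 8.13 CPM (7.13 to 9.23) after siRNA 1 and at 6.40 CPM (5.51 to 7.40) after siRNA 2. It was lower in both knockdown libraries, with log2 folds of -0.29 and -0.59, though after siRNA 1 the interval overlaps that of the control (limma adjusted p = 0.640). SNAI2 (chromosome 8, 48917604 to 48921740, minus strand) stood at 9.65 CPM (8.52 to 10.9), at 14.1 CPM (12.8 to 15.5) after siRNA 1 and at 7.87 CPM (6.87 to 8.97) after siRNA 2. The siRNAs thus lay on opposite sides of the control, with log2 folds of 0.51 and -0.26 (limma adjusted p = 0.938). SNAI2 was 1.79 times as high after siRNA 1 as after siRNA 2, without a replicate of either to test it. Per length of all exons SNAI1 stood at 6.02 against 2.84 RPKM for SNAI2 in the control, 4.82 against 4.16 after siRNA 1, where the limits overlap, and 3.80 against 2.32 after siRNA 2. With the length of 1 transcript per gene SNAI2 was at 3.97, 5.81 and 3.24 RPKM. After siRNA 1 SNAI2 then stood above SNAI1, though the limits overlap (5.27 to 6.40 against 4.23 to 5.47 RPKM). By this length the limits of the SNAI genes overlap after siRNA 2 as well.

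ZEB1, a repressor of epithelial genes, was the most abundant factor per length in control cells. ZEB1 (chromosome 10, 31318495 to 31529814, plus strand) stood at 176 CPM in control cells (exact 95% Poisson limits 171 to 181), at 207 CPM (202 to 213) after siRNA 1 and at 191 CPM (186 to 196) after siRNA 2. Both knockdown libraries were slightly higher, with log2 folds of 0.23 and 0.12, which did not pass (limma adjusted p = 0.821). Its paralog ZEB2 (chromosome 2, 144364364 to 144524583, minus strand) stood at 39.9 CPM (37.6 to 42.3), at 29.6 CPM (27.7 to 31.7) after siRNA 1 and at 37.5 CPM (35.2 to 39.8) after siRNA 2. ZEB2 was lower after siRNA 1, while after siRNA 2 its interval overlaps that of the control (log2 folds -0.42 and -0.09, limma adjusted p = 0.782). ZEB1 made up 92.7%, 95.3% and 93.7% of the summed ZEB level per exon length in control, siRNA 1 and siRNA 2 cells, in that order. With the length of 1 transcript per gene ZEB1 stood at 29.4, 34.6 and 31.9 RPKM and ZEB2 at 4.17, 3.09 and 3.91 RPKM. ZEB1 thus led by either length, while its share depends on the length used.

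The antisense RNA ZEB1-AS1, which is transcribed away from the start of ZEB1 and shares 366 exon bases with it, stood higher after both siRNAs. It stood at 3.29 CPM in control cells (exact 95% Poisson limits 2.65 to 4.04), at 7.34 CPM (6.40 to 8.39) after siRNA 1 and at 7.24 CPM (6.29 to 8.30) after siRNA 2. The knockdown libraries lay close together and above the control interval, with log2 folds of 0.96 and 0.94, and ZEB1-AS1 did not pass the limma test (adjusted p = 0.236). The strand setting of the counting is not given in the sources used here, so reads in the shared bases cannot be told apart. ZEB2 likewise shares 1299 exon bases with its antisense RNA ZEB2-AS1, and TWIST1 shares 141 with AC003986.2, neither of them analysed here. SNAI3-AS1, antisense to a SNAI relative, stood at 0.939, 1.53 and 1.12 CPM (limma adjusted p = 0.810). The host RNAs of the miR-200c, miR-205 and miR-34a microRNAs were not analysed here.

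GRHL1, an activator of epithelial junction and desmosome genes, was the only grainyhead gene measured among these factors. GRHL1 (chromosome 2, 9951693 to 10002277, plus strand) was at 4.66 CPM in control cells, from 129 reads (exact 95% Poisson limits 3.89 to 5.54). It was at 1.70 CPM after siRNA 1, from 50 reads (1.26 to 2.24), and at 3.39 CPM after siRNA 2, from 97 reads (2.75 to 4.14). GRHL1 was lower in both knockdown libraries, at 36.5% and 72.8% of the control, and its interval after siRNA 2 overlaps that of the control. The log2 folds of -1.07 and -0.37 did not pass the limma test (adjusted p = 0.501). Of the wider family, UBP1, a more distant grainyhead relative, stood at 69.9 CPM in control cells and at 144 and 154 CPM after siRNA 1 and siRNA 2. UBP1 had log2 folds of 1.03 and 1.13 and did not pass in limma (adjusted p = 0.111), while its adjusted p was 0.0266 with DESeq2 and 0.218 with edgeR. TFCP2, its paralog, stood at 47.8, 67.4 and 63.6 CPM. At least 2-fold higher after both siRNAs were TCF3 among the 7 factors and UBP1 among 4 tested relatives, against 1.24% of all genes tested. None of these was at least 2-fold lower after both, against 0.668% of all genes.

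In the control library the order of the factors per exon length was ZEB1 at 20.4 RPKM, TCF3 at 11.1, SNAI1 at 6.02, SNAI2 at 2.84, ZEB2 at 1.59, TWIST1 at 1.39 and GRHL1 at 0.586. With siRNA 1 and siRNA 2, TCF3 at 28.9 and 32.8 RPKM stood above ZEB1 at 24.0 and 22.1. The intervals of ZEB2 (1.50 to 1.69 RPKM) and TWIST1 (1.10 to 1.73) overlap in control cells, so these neighbours were not separated there. The order below TCF3 depends on the length used, since the exons of ZEB2 add up to 25058 bases over 48 annotated transcripts. With the 9583 bases of ZEB2-236 and 1 transcript for each other factor, ZEB2 in control cells was at 4.17 RPKM (3.92 to 4.42), above TWIST1 at 1.69 (1.34 to 2.11) and not separated from SNAI2 at 3.97 (3.51 to 4.48). ZEB1 in control cells and TCF3 after knockdown were highest by either length.

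Short matches to the siRNAs, which can let an siRNA act on other transcripts, were counted in the factors. The 7-base site of the control siRNA as labelled, TGTCACG, and that of its opposite strand, TCGGAGA, were in none of the 20 annotated TCF3 transcripts. They were in 6.91% and 11.5% of the 11797 protein-coding transcripts searched, 1 per gene. TCF3-204 held AGGGATG, the site of the opposite strand of NONO siRNA 2, once in its coding part, and 23.6% of transcripts hold it. CATTCAT, the site of the guide strand of NONO siRNA 1, was in the 3′ UTR of TWIST1, ZEB2 and GRHL1, beside 14.4% of all 3′ UTRs searched.
TWIST1 site of NONO siRNA 1: ctaaatgCATTCATattttta
ZEB2 site of NONO siRNA 1: ttttttgCATTCATttaattt
GRHL1 site of NONO siRNA 1: tagaaaaCATTCATgaattca
These sites are shown because their genes were lower after siRNA 1, and ZEB2 and GRHL1 lower than after siRNA 2. CATTCAT was in 1 of 3 annotated transcripts of TWIST1, 19 of 48 of ZEB2 and 2 of 8 of GRHL1. SNAI1, TCF12 and TCF4 were also lower after siRNA 1, and TCF4 lower than after siRNA 2. The searched transcripts of SNAI1, TCF12 and TCF4 held no CATTCAT. That of TCF4, TCF4-203, has a 3′ UTR of only 99 bases, which leaves little room for a match there. Other transcripts of TCF12 and TCF4 were not searched, so sites in them are not known. GRHL1-201 and ZEB2-236 also held AGTTCGA, the site of the guide strand of NONO siRNA 2, in their coding parts, beside 10.5% of whole transcripts that hold it. AGGGATG was in the coding part of ZEB2-236, 2 times, and of GRHL1-201, once. ACTTCGC, the site of the opposite strand of NONO siRNA 1, was in the 5′ UTR of ZEB2-236, 2 times, beside 6.1% of whole transcripts that hold it. TGTCACG was in 6 of 48 annotated ZEB2 transcripts but not in ZEB2-236. The part of these matches in the values was not tested.

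The genes whose pattern was most like that of TCF3 were found by the distance between their pairs of log2 folds over 3 libraries, among 10437 genes with a mean of at least 5 CPM. They were FBXO43 at a distance of 0.028, ARHGAP19 at 0.033, ZNF629 at 0.048, ZW10 at 0.068 and PRMT6 at 0.077. FBXO43, an inhibitor of the anaphase-promoting complex, had 7.44 CPM in control cells and 20.5 and 24.1 CPM after knockdown. ZW10, which acts at kinetochores, had 21.1, 58.7 and 62.6 CPM. PRMT6, an arginine methyltransferase, had 8.995, 25.9 and 27.4 CPM. All 5 missed the limma threshold, with adjusted p between 0.0614 and 0.0813, and all 5 were called by DESeq2, with adjusted p between 0.00101 and 0.00672. Because these genes were chosen for folds near those of TCF3, test results like its own are largely set by the choice.

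Other transcription factors linked to EMT were lower more often than higher. Of 13 tested, 9 were lower after both siRNAs, beside 34.5% of all genes tested, and none was higher after both, beside 37.8%. None passed the limma test. Their median log2 folds were -0.23 after siRNA 1 and -0.46 after siRNA 2, beside 0.025 and 0.0073 over all genes. SOX4, an SRY-related factor that TGF-beta induces, stood at 18.3 CPM in control cells and at 10.4 and 8.04 CPM after knockdown (limma adjusted p = 0.257). FOSL1, an AP-1 subunit, stood at 773, 578 and 528 CPM, and ETS1, an ETS factor, at 617, 487 and 398 CPM. The 7 factors examined here, the EMT opponent GRHL1 included, had medians of -0.29 and -0.26, with 2 higher and 4 lower after both siRNAs. GRHL1 was among the lower, so these values do not describe EMT-driving factors alone. Of 6 epithelial factors tested, 3 were higher and 2 lower after both, none passed, and KLF4, a zinc finger factor of epithelial cells, stood at 10.3, 15.4 and 12.8 CPM.

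The corepressors and chromatin partners of SNAI and ZEB proteins, the acetyltransferases EP300 and KAT2B included, lay on both sides of the control. Over 21 genes the median log2 folds were -0.13 and -0.047, and none passed in limma. Of these genes, 7 were higher and 8 lower after both siRNAs, beside 37.8% and 34.5% of all genes tested. HDAC1, a histone deacetylase of several corepressor complexes, stood apart at 80.9 CPM in control cells and at 194 and 160 CPM after siRNA 1 and siRNA 2 (limma adjusted p = 0.114, DESeq2 adjusted p = 0.0238, edgeR adjusted p = 0.219). LIMD1, a LIM protein that binds SNAI1, stood at 79.4, 53.2 and 51.4 CPM. CTBP2, a corepressor that binds ZEB proteins, stood at 109, 74.2 and 94.1 CPM, and the deacetylase SIRT1 at 57.0, 38.9 and 45.4 CPM.

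The products of 25 genes act on the stability or activity of SNAI, TWIST or ZEB proteins. They are mostly kinases, ubiquitin ligases and deubiquitinases, with a phosphatase (PPP4C) and a COP9 signalosome subunit (COPS2). Of the 25 genes, 12 were higher and 5 lower after both siRNAs, beside 37.8% and 34.5% of all genes tested. None passed the limma test. GSK3B, a kinase that marks SNAI1 for degradation, stood at 77.8 CPM in control cells and at 142 and 152 CPM after knockdown (limma adjusted p = 0.165). BTRC, the ubiquitin ligase subunit that recognises marked SNAI1, lay on the other side, at 57.8, 44.2 and 40.7 CPM. Its paralog FBXW11 stood at 131, 62.3 and 99.6 CPM, lower mainly after siRNA 1. SIAH2, a RING ubiquitin ligase, stood at 21.7, 29.957 and 28.2 CPM. Protein levels were not measured here.

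Of 19 signalling genes known to induce these factors, 13 were lower and 5 higher after both siRNAs, beside 34.5% and 37.8% of all genes tested. The median log2 folds of the 19 were -0.25 and -0.36, and none passed in limma. HIF1A, the hypoxia factor that induces TWIST1, stood at 356, 222 and 216 CPM in control, siRNA 1 and siRNA 2 cells, in that order. LEF1, a Wnt pathway factor, stood at 20.6, 12.1 and 12.1 CPM, and JAG1, a Notch ligand, at 67.4, 43.7 and 38.5 CPM. TGFBR1, a receptor of TGF-beta, was higher, at 26.8, 41.7 and 42.9 CPM. Their limma adjusted p lay between 0.240 for HIF1A and 0.376 for TGFBR1.

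The genes that the factors act on gave no call either. Of 28 epithelial targets, 8 were not in all 3 tables, 10 stayed under 1 CPM and 10 were tested. Of those tested, 1 was higher and 4 were lower after both siRNAs, beside 37.8% and 34.5% of all genes tested. CGN, coding for the tight junction protein cingulin, stood at 8.13 CPM in control cells and at 5.47 and 3.04 CPM after knockdown (limma adjusted p = 0.411). CLDN1, a claudin of the same junctions, stood at 19.7, 8.57 and 13.7 CPM, and TJP1, the scaffold ZO-1, at 117, 109 and 114 CPM. CDH1, EPCAM and ESRP1 were not analysed here. Of 20 mesenchymal targets tested, 11 were lower and 4 higher after both, beside the same 34.5% and 37.8%, with medians of -0.44 and -0.042. TNC, the matrix protein tenascin C, stood at 173, 253 and 279 CPM. SPARC, a matrix glycoprotein, stood at 363, 154 and 207 CPM, and the integrin ITGA5 at 391, 220 and 246 CPM. The limma adjusted p of these 3 lay between 0.152 for SPARC and 0.317 for TNC.

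**Figure D4:**
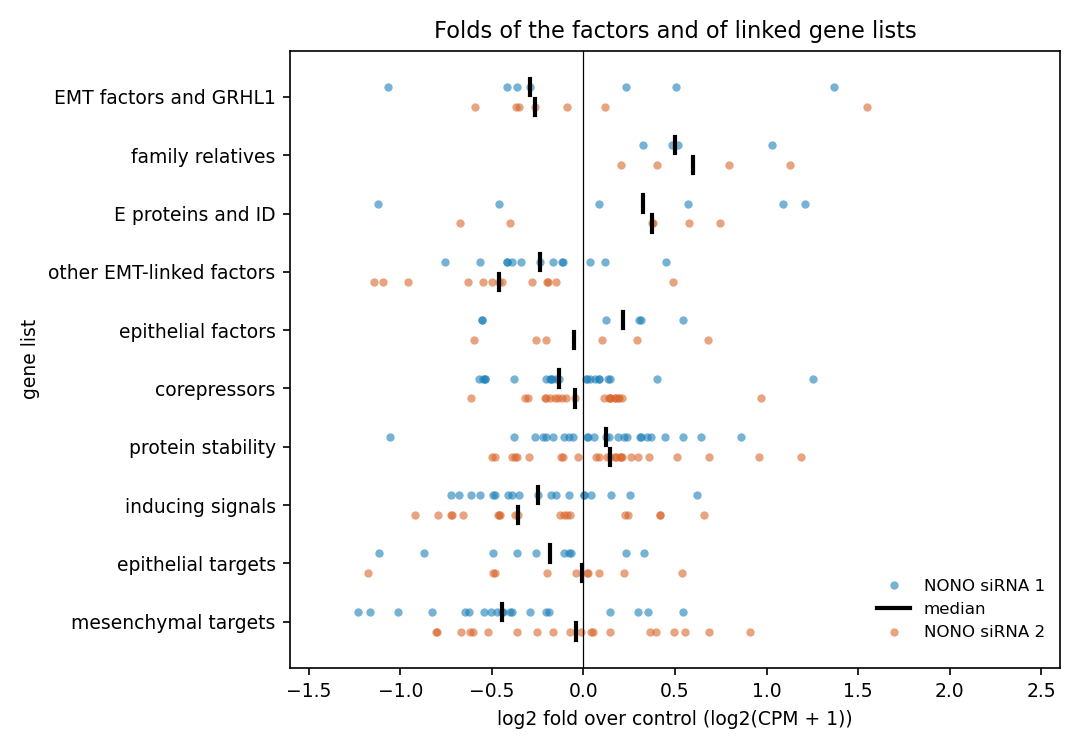
Log2 fold over the control library on the log2(CPM + 1) scale for every tested gene of the 7 factors and of 9 linked gene lists, with NONO siRNA 1 in blue, NONO siRNA 2 in orange and a black bar at each median. TCF3 is the factor farthest right in the top row, and the medians of the other EMT-linked factors are -0.23 and -0.46.

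Markers of the labelled cell type and of others were read beside these values. Of 14 urothelial markers, 10 were in all 3 tables and 7 were tested, none passing in limma. The keratin KRT18 stood at 111, 49.0 and 93.3 CPM, and the summed level of the 10 was 201, 102 and 190 CPM in control, siRNA 1 and siRNA 2 cells, in that order. The uroplakins UPK1A and UPK2, defining markers of differentiated urothelium, were at 0.442 CPM or less in every library. Summed leukocyte markers stayed at 2.42 CPM or less, fibroblast markers summed to 28.1, 16.8 and 19.3 CPM, of which THY1 gave 22.0, 14.04 and 16.02 CPM, and endothelial markers to 58.2, 16.8 and 32.3 CPM, of which the receptor TIE1 gave 55.7, 15.4 and 30.2 CPM. Of these lists, 3 of 8, 5 of 8 and 6 of 8 genes had values in all tables, and their part in the results was not tested.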

How the data were processed

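RNA sequencing was done on 1 control and 2 NONO siRNA libraries of UM-UC-3 cells. Per the submitters' processing notes, hg19 and GRCh37 were the builds and HISAT2 2.1.0, HTSeq 0.6.1 and bcl2fastq 2.19.1 the tools, with no roles stated. Neither strand setting nor annotation release is given in the sources used here. For each library there is a table, deposited by the authors, whose values are CPM with no correction for gene length, as the values themselves show. Divided by the CPM that 1 read is worth, 99.3% to 99.5% of values are whole to within 0.01, and the others, which lie below 1 read, were counted as 0. The members and gene lists were chosen with earlier results of these data known.

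The 13922 genes found in every table that reached 1 CPM somewhere entered limma-trend (limma 3.58.1, R 4.3.3) as log2(CPM + 1), with 1 residual and 7.68 prior degrees of freedom. P-values are two-sided, adjusted by the Benjamini-Hochberg method over all genes tested and called under 0.05. As alternatives, the recovered reads were tested with DESeq2 1.42.0 and edgeR 4.0.16, and the limma and edgeR fits were tested on simulated data. DESeq2 gave no adjusted p for 3509 genes, TWIST1 and GRHL1 among them. Exact 95% Poisson limits cover counting error only, and not differences between cultures or libraries. Reads copied by PCR are not separate molecules, so the limits can be too narrow even for counting error. Gene lengths, positions and transcripts are those of GENCODE 29 on GRCh38, which is not a build named in the notes. The searched transcript of a gene was the basic-set transcript with the longest coding part. A level per length is the CPM over the kilobases of all annotated exons. Pseudogenes of ZEB2 and TCF3 gave 0.204 CPM or less. From each list up to 4 genes were named, those with a mean of at least 5 CPM, the same sign with both siRNAs and the largest smaller fold; some of these are not reported here. The 5 genes most like TCF3 and antisense or overlapping genes were also named by rule. ID1, ID4, UPK1A and UPK2 were named after their values were seen.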

Additional observations from a re-analysis of the deposited data

How the results depend on the processing

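Under every alternative with both siRNAs run, each of the 7 factors kept the sign of its mean log2 fold. TCF3 passed with a pseudocount of 5 (log2 fold 1.41, limma adjusted p = 0.0437), with upper-quartile scaling (1.45, 0.00513), with DESeq2 (1.46, 0.000478) and with edgeR and its own filter, an alternative chosen after seeing the data (1.45, 0.0165). It did not pass with a pseudocount of 0.1, no filter, a filter at 5 CPM, TMM scaling, limma without a trend or edgeR on the same genes, where the adjusted p lay between 0.0633 and 0.566, and the cause was not tested. No other factor passed under any alternative. With either siRNA left out, the folds, now without a test, were 1.37 to 1.55 for TCF3, -1.07 to -0.37 for GRHL1, -0.59 to -0.29 for SNAI1, -0.26 to 0.51 for SNAI2, -0.36 to -0.35 for TWIST1, 0.12 to 0.23 for ZEB1 and -0.42 to -0.09 for ZEB2. The median over the 7 factors, -0.25, was -0.16 with a pseudocount of 5, -0.29 with TMM scaling, -0.28 with edgeR's own filter, 0.12 with a filter at 5 CPM, which leaves 5 factors, and -0.29 to -0.26 with an siRNA left out.

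Counts over all genes moved far more. The 19 genes called higher and 11 lower became 0 and 0 with limma and no filter, 2 and 3 with a filter at 5 CPM, 2 and 3 with TMM scaling, 161 and 80 with upper-quartile scaling, 0 and 3 without a trend, 0 and 1 with edgeR on the same genes, 86 and 70 with edgeR on the 16963 genes of its own filter, and 146 and 61 with DESeq2, beside 1588 genes at an unadjusted limma p under 0.05. With a pseudocount of 5, 27 were lower. Genes at least 2-fold higher with both siRNAs, 173, were 338 with a pseudocount of 0.1 and 93 with 5, and those lower, 93, were 194 and 47. With an siRNA left out they were 328 to 354 higher and 199 to 379 lower. No paired analysis was possible because the labels give the control library no replicate number and there is only 1 of it. The length of 1 transcript per gene for levels per length was also an alternative chosen after seeing the data.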
